A study of Drosophila melanogaster with 8 samples.

Results

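The genes described here are 8 protein-coding genes of the Drosophila melanogaster Y chromosome that do not encode dyneins: ORY, CCY, ARY, WDY, PRY, Ppr-Y, Pp1-Y1 and Pp1-Y2. They were taken by name from a table of 12051 genes, all 8 were found there, and all 8 were among the 11174 genes that were tested, whose mean over the libraries reached 10 normalized reads. A table of current RefSeq genes (Release 6) placed all 8 on the Y chromosome, and 22 genes of the deposited table in all were placed there. RNA came from testes of wild-type flies of day 2 to day 7, grown on standard food, as immunoprecipitates made with antibodies to one of a pair of ribosomal proteins of the large subunit. The eRpL22-like pulldown is represented by 4 libraries (replicates 1 to 4) and the eRpL22 pulldown by 3 (replicates 1 to 3). The labels list a replicate 4 for eRpL22 as well, which was not analysed here. All libraries share the wild-type genotype. Since no label ties a replicate to its own flies, p-values below speak for the scatter of these libraries alone, and that scatter may be technical. The study asks which RNAs sit on ribosomes carrying each of the paralogues.

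The Drosophila Y chromosome is almost wholly heterochromatin and carries few protein-coding genes, most of which are active only in the male germline. Flies without a Y chromosome are viable males but sterile. Several of its genes are transcribed in primary spermatocytes across giant introns filled with satellite repeats, which form the lampbrush-like Y loops, and their messages serve mainly the building of sperm later on. Most of these genes moved to the Y from other chromosomes, so that many have relatives elsewhere in the genome.

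Reads recovered over all 12051 genes of the table ranged from 22448043 to 25159184 in the eRpL22-like libraries and from 15971685 to 26346787 in the eRpL22 libraries. Below, a normalized read is a read count divided by the authors' factor for its library. A count of 1 read stood for 0.747 to 1.495 normalized reads, and a count of 0 allows up to 3 reads, or 2.24 to 4.49 normalized reads, for counting error only. The 6 spermatid markers checked summed to 358676 to 444113 normalized reads in the eRpL22-like libraries and 454492 to 483001 in the eRpL22 libraries. The 7 spermatocyte markers summed to 22250.0 to 37969.5 with eRpL22-like and 19333 to 25709.9 with eRpL22. The 5 accessory gland markers summed to 22784 to 48548 with eRpL22-like and 25169.7 to 42767 with eRpL22. The 6 hub and cyst cell markers summed to 1872 to 2684 with eRpL22-like and 1199 to 3165 with eRpL22, the 5 muscle markers to 2563 to 19812 with eRpL22-like and 2466 to 5213 with eRpL22, and the 4 markers of stem cells and spermatogonia to 599 to 2407 with eRpL22-like and 902 to 3983 with eRpL22. Of 4 fat body markers, 2 were in the table, at sums of 0 to 134 with eRpL22-like and 0 to 76.2 with eRpL22. Their part in the results was not tested. No input RNA or mock precipitate is among the samples, so abundance in the testis, the number of cells that make an RNA and its hold on ribosomes cannot be told apart.

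No Y-linked gene of the list passed the test between the pulldowns. Limma with Benjamini-Hochberg adjustment over the 11174 genes called 0 of the 8, where it called 0.0% of all genes tested, and 0 of the 8 had an unadjusted p under 0.05, against 4.11% of all genes (459 genes). Of the 8, 5 had a log2 fold change, taken as eRpL22-like divided by eRpL22, above 0 and 3 below, against 48.8% above 0 among all genes, and their median was 0.85, against -0.03 over all genes. Of the 5, WDY and Ppr-Y passed the filter only through eRpL22-like replicate 1, and without it 3 of the 6 members tested were above 0. With Ppr-Y, which had no read in any eRpL22 library, placed at the bound given below, the median of the 8 stays at 0.85. It could not change, since Ppr-Y lies above the middle of the 8 either way. Library values of the 2 pulldowns overlapped for all 8 genes, where 5.14% of the genes tested did not overlap. On the same libraries edgeR's quasi-likelihood test called 0 of the 6 members it kept. DESeq2 on the recovered reads gave 4 of the 8 an adjusted p and called 0 of them, against 1.98% of all genes it adjusted. It gave 6 of the 8 an unadjusted p. Of these Ppr-Y alone was under 0.05 (0.0338), as were 9.78% of all genes with a p in that fit. The authors' deposited Wald test gave Ppr-Y an unadjusted p of 0.397, and its smallest among the 8 was 0.0510, for ORY. The authors' deposited table gave adjusted p-values from 0.875 to 0.989 for the 8 and called 0.174% of all genes.

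**Figure D1:**
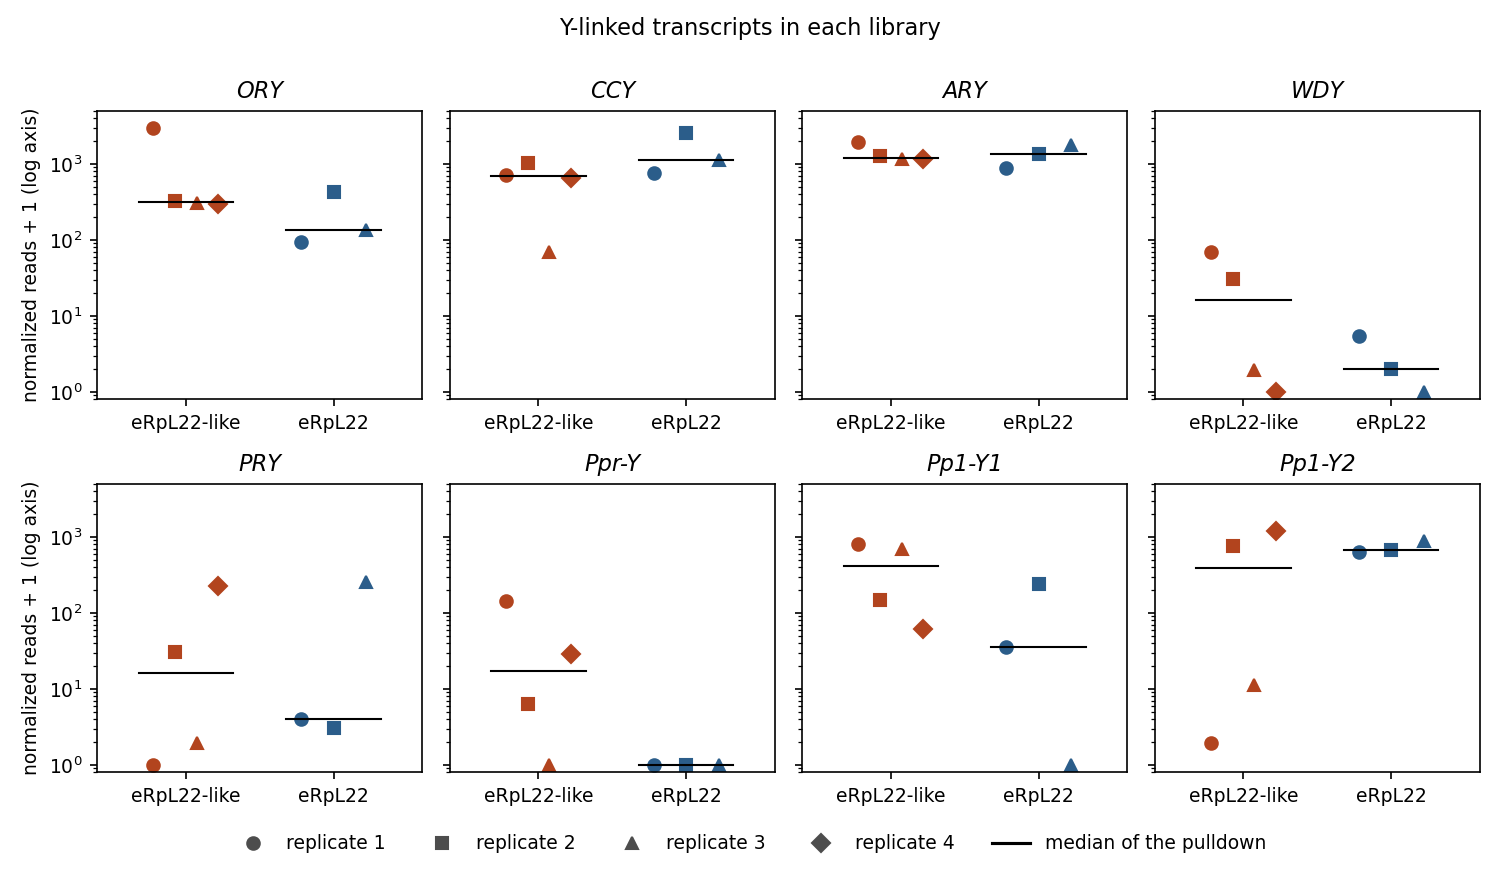
Normalized reads + 1 (log axis) of the 8 genes in each library, eRpL22-like libraries at left and eRpL22 libraries at right. Marker shapes give the replicate number within a pulldown and lines the median. ARY lies between 896 and 1928 normalized reads in all 7 libraries, whereas Ppr-Y has no read in the 3 eRpL22 libraries, and PRY spans 0 to 225 and Pp1-Y2 0.911 to 1183 normalized reads within the eRpL22-like pulldown.

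ORY, named for a likeness to the junction protein occludin, corresponds to the male fertility factor ks-1 and is one of the genes transcribed as a Y loop. ORY (FBgn0046323) had 2989.7, 327, 303 and 296 normalized reads in eRpL22-like replicates 1 to 4, against 92.7, 425 and 133 in eRpL22 replicates 1 to 3. A single library, eRpL22-like replicate 1, stood far above the rest, and eRpL22 replicate 2 lay within the eRpL22-like range. The mean was 979 ± 1341 (SD, n = 4) with eRpL22-like and 217 ± 181 (SD, n = 3) with eRpL22, and the medians were 315 and 133. The log2 fold change of 1.64 had an SE of 1.33 and a 95% interval from -1.05 to 4.33, with a limma adjusted p of 0.945. Without eRpL22-like replicate 1 it was 0.82. Without eRpL22 replicate 2 it was 2.28 and the groups no longer overlapped, the lowest eRpL22-like library being at 296 and the highest eRpL22 library at 133. With that library left out, 11.8% of all genes tested did not overlap.

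WDY encodes a protein with WD40 repeats that sperm need to move within the female tract. Few of its reads were seen in either pulldown. WDY (FBgn0267449) had 75, 39, 1 and 0 reads in eRpL22-like replicates 1 to 4, or 68.3, 29.1, 0.934 and 0 normalized reads, against 3, 1 and 0 reads in eRpL22 replicates 1 to 3, or 4.49, 1.02 and 0 normalized reads. All 3 eRpL22 libraries and eRpL22-like replicates 3 and 4 were therefore at or under the floor of 3 reads, and the transcript was above it in eRpL22-like replicates 1 and 2 only. The log2 fold change of 1.84 had an SE of 2.49 (limma adjusted p = 0.946). It was 1.20 without eRpL22-like replicate 2, 1.26 without eRpL22 replicate 3 and 2.84 without eRpL22-like replicate 4, and DESeq2 on the recovered reads gave 3.77. Without eRpL22-like replicate 1 the gene fell under the filter on low values and could not be tested.

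CCY encodes a protein with coiled coils, and its mean was lower in the eRpL22-like libraries. CCY (FBgn0267592) had 713, 1044, 67.3 and 659 normalized reads in eRpL22-like replicates 1 to 4, against 754, 2556 and 1115 in eRpL22 replicates 1 to 3. The range of the eRpL22-like libraries was widened downwards by replicate 3 and that of the eRpL22 libraries upwards by replicate 2, and the overlap rested on the 754 of eRpL22 replicate 1 lying below the 1044 of eRpL22-like replicate 2. Means were 621 ± 406 (SD, n = 4) with eRpL22-like and 1475 ± 954 (SD, n = 3) with eRpL22, a ratio of 0.421. The log2 fold change of -1.59 had an SE of 1.00 and a 95% interval from -3.63 to 0.45 (limma adjusted p = 0.945). It was -0.71 without eRpL22-like replicate 3. Without eRpL22 replicate 1, or without eRpL22-like replicate 2, the groups did not overlap, CCY being lower with eRpL22-like. The shares of all genes without overlap were 12.4% and 8.81% with those libraries left out.

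PRY, named for its relation to the polycystins, a family of ion channels, ranged from well represented to near absent. PRY (FBgn0267489) had 0, 29.9, 0.934 and 225 normalized reads in eRpL22-like replicates 1 to 4, against 2.99, 2.04 and 258 in eRpL22 replicates 1 to 3. Each pulldown thus held 1 library well represented (225 and 258 normalized reads) and 2 libraries at or under 3 reads. The remaining eRpL22-like library, replicate 2, lay between these at 40 reads. The direction of its log2 fold change of -0.44 (SE 2.89, limma adjusted p = 0.989) depended on which library was left out: it was 1.63 without eRpL22 replicate 3, 0.70 without eRpL22-like replicate 1 and 0.38 without eRpL22-like replicate 3.

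ARY, an aldo-keto reductase of the aldehyde reductase kind, varied least among the 8. ARY (FBgn0058064) had 1928, 1263, 1154 and 1146 normalized reads in eRpL22-like replicates 1 to 4, against 896, 1344 and 1776 in eRpL22 replicates 1 to 3. Its highest library exceeded its lowest by 2.15-fold, where for ORY and CCY that ratio was 32.3 and 38.0. The log2 fold change of 0.06 had an SE of 0.69, and its 95% interval, from 0.395-fold to 2.74-fold, leaves room for changes of more than 2-fold either way (limma adjusted p = 0.993). Its spread within pulldowns, an SD of 0.418 on the log2 scale, lay at percentile 6.94 of the genes tested. Limma drew this spread towards that of genes of similar level. The SE and interval are therefore wider than the scatter of ARY alone would give.

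The remaining enzymes, Pp1-Y1 and Pp1-Y2, are Y-linked catalytic subunits of the protein phosphatase PP1, which removes phosphate from serine and threonine residues. Pp1-Y1 (FBgn0261399) had 808, 148, 687 and 61.2 normalized reads in eRpL22-like replicates 1 to 4, against 34.4, 237 and 0 in eRpL22 replicates 1 to 3. Pp1-Y2 (FBgn0046698) had 0.911, 765, 10.3 and 1183 normalized reads in eRpL22-like replicates 1 to 4, against 637, 670.0 and 894 in eRpL22 replicates 1 to 3. The pair ran opposite ways across the eRpL22-like libraries: replicates 1 and 3 held most of the Pp1-Y1 reads and were nearly without Pp1-Y2, with 1 and 11 reads. In replicates 2 and 4, and in all 3 eRpL22 libraries, Pp1-Y2 had more reads than Pp1-Y1. Over the 7 libraries Pearson's r between the pair on the log2(normalized reads + 1) scale was -0.64 and Spearman's rho -0.71, as a description. The source used here does not say how reads matching more than 1 gene were counted, so a division of reads between these related genes is uncertain.

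For Pp1-Y1 the mean was 426 ± 376 (SD, n = 4) with eRpL22-like and 90.3 ± 128 (SD, n = 3) with eRpL22, a ratio of 4.72. Its log2 fold change of 3.72 (SE 2.27, limma adjusted p = 0.945) was 1.55 without eRpL22 replicate 3, the library with no read. Without eRpL22 replicate 2 it was 5.49 and the groups no longer overlapped, with at least 61.2 normalized reads in the eRpL22-like libraries and at most 34.4 in the eRpL22 libraries. With that library left out, 11.8% of all genes tested did not overlap. Pp1-Y2 averaged 489.9 ± 585 (SD, n = 4) with eRpL22-like and 734 ± 139.8 (SD, n = 3) with eRpL22. Its log2 fold change of -3.45 (SE 1.91) had the smallest unadjusted p of the 8, 0.0795, and a limma adjusted p of 0.945. Leaving out an eRpL22-like library gave -1.74 without replicate 1, -4.62 without replicate 2, -2.60 without replicate 3 and -4.83 without replicate 4. The ratio of means, 0.668, was much nearer to 1 than the fold change on the log scale, and DESeq2 on the recovered reads gave -0.58. The SD of Pp1-Y2 within pulldowns, 3.54 on the log2 scale, lay at percentile 82.9 of the genes tested. Limma drew it towards genes of similar level, so its limma SE and p are smaller than that scatter alone would give.

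Reads of Ppr-Y were recovered from 3 of the 4 eRpL22-like libraries and from 0 of the 3 eRpL22 libraries. Ppr-Y (FBgn0046697) had 157, 7, 0 and 36 reads in eRpL22-like replicates 1 to 4, or 143, 5.23, 0 and 27.6 normalized reads, against 0 reads in each of the 3 eRpL22 libraries. The eRpL22-like mean of 43.9 normalized reads was 13.3-fold what the eRpL22 mean would be with 3 reads in each library (3.31 normalized reads). This bound allows for counting error only and not for scatter among libraries, and most of the eRpL22-like mean came from replicate 1. Since eRpL22-like replicate 3 also held no read, the groups overlapped. Without it they did not, as for 9.32% of all genes tested. The fitted log2 fold change of 3.66, which depends on the pseudocount and is no bound, had an SE of 2.45 (limma adjusted p = 0.945). It was 1.78 with a pseudocount of 8. With eRpL22-like replicate 1 left out, the gene fell under the filter on low values.

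**Figure D2:**
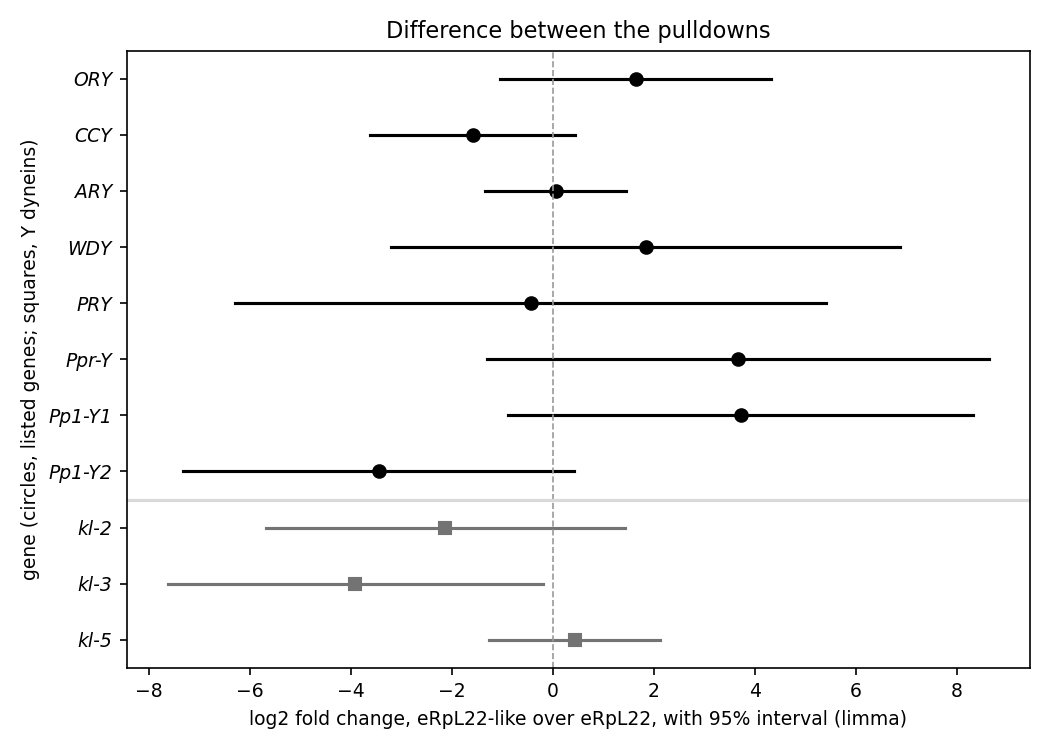
Log2 fold change between the pulldowns (eRpL22-like divided by eRpL22) with its 95% interval (limma, log2(normalized reads + 1)) for the 8 genes (circles) and the 3 Y-linked dynein heavy chains (squares). The intervals of all 8 genes include 0, with estimates from -3.45 for Pp1-Y2 to 3.72 for Pp1-Y1.

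The libraries differed in which Y-linked genes supplied their reads. The 8 genes together had 6651, 3612, 2223 and 3598 normalized reads in eRpL22-like replicates 1 to 4, against 2421, 5235 and 4176 in eRpL22 replicates 1 to 3. Their share of all reads was 0.0196% ± 0.00753 (SD, n = 4) with eRpL22-like and 0.0187% ± 0.00800 (SD, n = 3) with eRpL22, and the library values overlapped. ORY took 45.0% of this sum in eRpL22-like replicate 1, against 8.23% to 13.6% in the other eRpL22-like libraries and 3.19% to 8.12% in the eRpL22 libraries. CCY took 3.03% to 28.9% in the eRpL22-like libraries and 26.7% to 48.8% in the eRpL22 libraries. ARY took 29.0% to 51.9% in the eRpL22-like libraries and 25.7% to 42.5% in the eRpL22 libraries. These shares are of reads and are not corrected for the lengths of the transcripts, so they do not rank the genes by level.

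**Figure D3:**
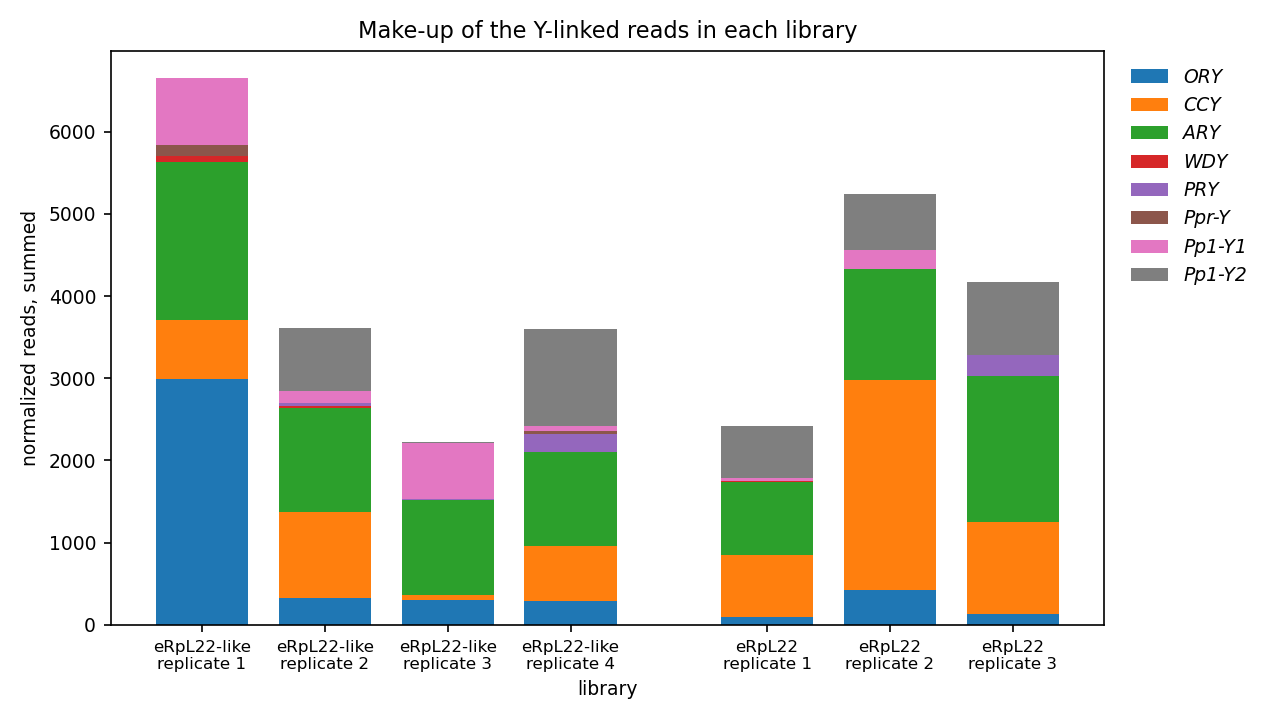
Normalized reads of the 8 genes, stacked, in each eRpL22-like library (left) and each eRpL22 library (right), not corrected for transcript length. The sum lies between 2223 and 6651 with eRpL22-like and between 2421 and 5235 with eRpL22, ORY fills much of eRpL22-like replicate 1, and Pp1-Y2 is nearly missing from eRpL22-like replicates 1 and 3.

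No library was high or low for all 8 genes. In eRpL22-like replicate 1, ORY, ARY, WDY, Ppr-Y and Pp1-Y1 had their highest values of all 7 libraries while PRY and Pp1-Y2 had their lowest. That is 5 of 8 genes highest in this library, where 17.4% of all genes tested were highest there, and 2 of 8 lowest, where 18.8% of all genes were lowest there. WDY and Ppr-Y passed the filter on low values only through this library, and without it 6 members were tested. Their being highest there was thus partly set by the filter, and the count of 5 cannot be weighed against the 17.4%. PRY was highest, at 225 and 258 normalized reads, in eRpL22-like replicate 4 and eRpL22 replicate 3, which were also the libraries with the most Pp1-Y2. In eRpL22-like replicate 2 all 8 genes exceeded 3 reads, and in the other libraries 1 to 3 of the 8 were at or under 3 reads. Among the 28 pairs of genes, r over the 7 libraries ran from -0.76, for PRY and Pp1-Y1, to 0.78, for ORY and Ppr-Y, with a median of 0.08, as a description of libraries that share depth and scaling.

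Reads that were plentiful in one library and missing from another were a feature of these libraries at large. Of the 8 genes, 4 (PRY, Ppr-Y, Pp1-Y1 and Pp1-Y2) were at or under 3 reads in at least 1 library and at 100 reads or more in another, a count chosen after the values were seen. The same held for 43.7% of all genes tested, so the share among the 8 was near the background. Among genes with a mean from 10 to under 100 normalized reads it was 80.9%, from 100 to under 1000 it was 53.6%, and from 1000 to under 5000 it was 1.88%. ARY, with a mean of 1358 over the 7 libraries, was the member in the last of these classes. ORY and CCY, with means of 652 and 987, were in the class below and were found above 3 reads in every library.

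**Figure D4:**
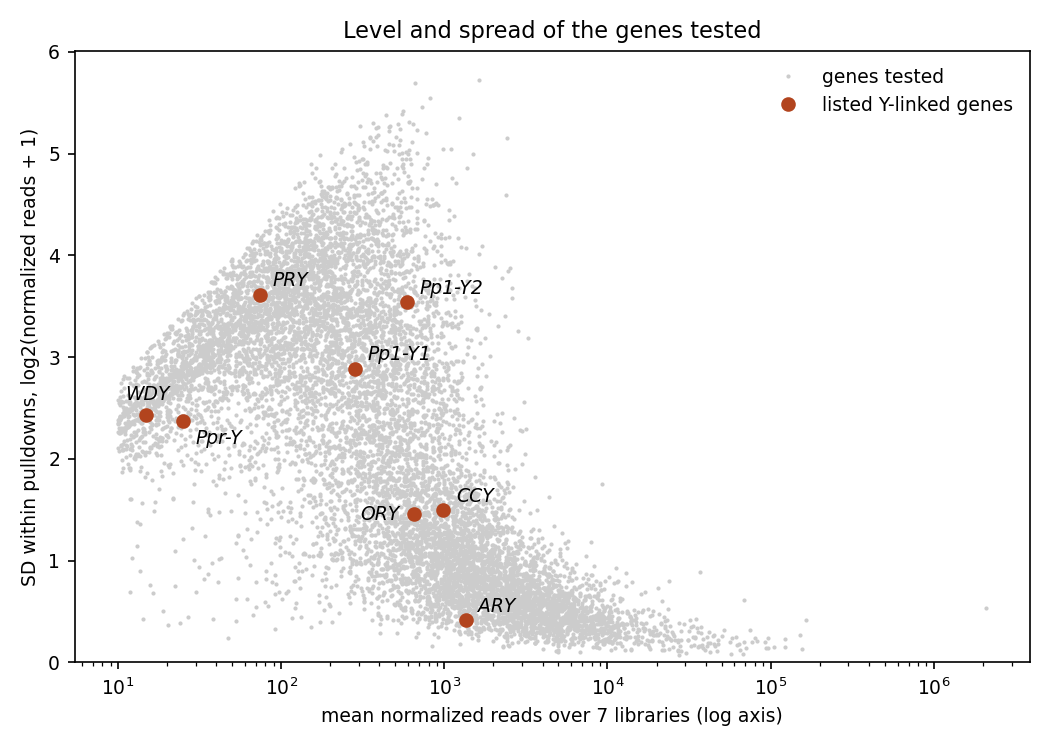
SD within pulldowns of log2(normalized reads + 1) against mean normalized reads (log axis) for the 11174 genes tested (grey) and the 8 Y-linked genes (coloured). The 8 lie within the cloud of all genes, from ARY with an SD of 0.418 to PRY with 3.61, and the median over all genes is 2.29.

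The dynein heavy chains of the Y chromosome, which drive the beating of the sperm tail, also had 0 of 3 genes called by limma, with 1 of 3 at an unadjusted p under 0.05, against 4.11% of all genes tested. This gene, kl-3, had 7.29, 833, 2.80 and 472 normalized reads in eRpL22-like replicates 1 to 4, against 849, 1251 and 678 in eRpL22 replicates 1 to 3, with a log2 fold change of -3.92 (SE 1.83, limma adjusted p = 0.945). Its low libraries, eRpL22-like replicates 1 and 3, were those that were low for Pp1-Y2. The SD of kl-3 within pulldowns was 3.09 on the log2 scale, and limma's SE was smaller than that spread alone would give. kl-2 had 3.64, 319, 1019 and 84.2 with eRpL22-like, against 395, 191 and 1342 with eRpL22. kl-5 had 615, 641, 1746 and 1548 with eRpL22-like, against 492, 663 and 1317 with eRpL22, and its log2 fold change was 0.43 (SE 0.84).

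Of the other 11 genes that RefSeq places on the Y chromosome, 7 passed the filter on low values, and limma called 0 of them, with 3 log2 fold changes above 0 and 4 below. CG45765, which RefSeq lists among the Mst77Y copies, had 714, 806, 1135 and 540.3 normalized reads in eRpL22-like replicates 1 to 4, against 1064, 1116 and 1277 in eRpL22 replicates 1 to 3. Mst77Y-7 had 0, 75.4, 463 and 41.3 with eRpL22-like, against 499, 104 and 6.35 with eRpL22. CR41506, a non-coding gene, had 51.9, 76.9, 480.3 and 241 with eRpL22-like, against 511, 5.10 and 404 with eRpL22. Reads of the near-identical Mst77Y copies may have been split among them, which leaves these values uncertain.

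Relatives of the Y-linked enzymes on other chromosomes gave no call either. Among 8 PP1-family catalytic subunits limma called 0, with 3 log2 fold changes above 0, 5 below and a median of -0.24. Pp1-13C averaged 4171 ± 799 normalized reads (SD, n = 4) with eRpL22-like and 3222 ± 898 (SD, n = 3) with eRpL22, and Pp1-87B averaged 3376 ± 1581 (SD, n = 4) with eRpL22-like and 1949 ± 1669 (SD, n = 3) with eRpL22. For Pp1alpha-96A the means were 1544 ± 1049.5 (SD, n = 4) with eRpL22-like and 2402 ± 810.3 (SD, n = 3) with eRpL22. The library values of 1 of these 8 did not overlap, against 5.14% of all genes tested. This was flw, named after its values were seen, at 351, 465, 572 and 374 normalized reads in eRpL22-like replicates 1 to 4, against 1014, 1008 and 921 in eRpL22 replicates 1 to 3. Its log2 fold change was -1.18 (SE 0.96, limma adjusted p = 0.945). The SD of flw within pulldowns was 0.253 on the log2 scale, so this SE was also widened by the spread of other genes.

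Among 7 aldo-keto reductases, the family of ARY, limma also called 0, with 4 log2 fold changes above 0, 3 below and a median of 0.19. CG6084 averaged 5242 ± 370.5 normalized reads (SD, n = 4) with eRpL22-like and 4592 ± 284 (SD, n = 3) with eRpL22. CG10863 averaged 2842 ± 1040.3 (SD, n = 4) with eRpL22-like and 1749 ± 1342 (SD, n = 3) with eRpL22. CG6083 averaged 2321 ± 816 (SD, n = 4) with eRpL22-like and 1013 ± 685 (SD, n = 3) with eRpL22. Of 4 genes whose proteins are tied to the RNA of Y-loop genes, 0 were called, with a median log2 fold change of -0.03. They were blanks, which encodes an RNA-binding protein of the testis, the splicing regulator heph, and pont and rept, which encode partner ATPases. The blanks transcript averaged 7272 ± 1638 normalized reads (SD, n = 4) with eRpL22-like and 7122 ± 2509 (SD, n = 3) with eRpL22. The rept transcript averaged 3347 ± 572 (SD, n = 4) with eRpL22-like and 3735 ± 1268 (SD, n = 3) with eRpL22, and the heph transcript 3048 ± 623 (SD, n = 4) with eRpL22-like and 3372 ± 755 (SD, n = 3) with eRpL22. Library values of all 4 overlapped.

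Genes with the most similar course over the 7 libraries were taken as the 2 with the highest Pearson's r of log2(normalized reads + 1) for each member, among the 11174 tested. These r values ran from 0.968 to 0.997 for the 16 genes, and from 0.194 to 0.984 once the 2 libraries farthest from the member's median were left out, over the 14 genes of the members other than Ppr-Y. For Ppr-Y that leaves 1 library above 0, so no such value is given. For WDY it leaves only libraries at or under 3 reads, and for PRY only 1 library above 3 reads. The values of WDY and PRY among the 14 thus describe reads near the floor. For Pp1-Y1 the 2 most similar genes were CG42692 (r = 0.997, 0.984 without those libraries) and Ciao1 (0.983 and 0.936). For ARY they were CG10752 (0.975 and 0.945) and fax (0.968 and 0.914), for ORY CG9589 (0.986 and 0.865) and CG15196 (0.971 and 0.767), and for CCY CaBP1 (0.984 and 0.932) and aurA (0.981 and 0.566). For Pp1-Y2 they were CG15082 (0.989 and 0.194) and CG9813 (0.989 and 0.647), a likeness that rested on the libraries left out. For PRY they were CG14291 (0.989) and CR44110 (0.981), for WDY CG1673 (0.973) and CR43937 (0.971), and for Ppr-Y CR44464 (0.992) and CG5618 (0.988). All are descriptions of 7 points, chosen as the highest among all genes tested, and the genes share library depth and scaling.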

How the data were processed

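RNA was extracted with Trizol from eRpL22-like or eRpL22 immunoprecipitates of testis lysates, and a Kapa Hyper prep kit was used for libraries of single 50-base reads, per the labels' protocols. Trimming with Trim Galore and cutadapt, STAR and DESeq2 are named in the submitters' processing notes. The read counter, strand handling, annotation and genome build are not given in the sources, so no coordinates are printed. Per the file headers, the deposited table gives the authors' log2 fold change, Wald statistic (a score), p-value and adjusted p-value. It also gives their normalized expression, here a signal of read counts divided by 1 factor per library. Of the deposited signal values, 100.0% came out as whole reads at a relative tolerance of 1e-06. Columns were matched to samples by pulldown and replicate number, and 0 such columns were left over. RefSeq and the table of current names matched 11952 of 12051 identifiers, and 4 names turned into dates were restored.

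The main test was limma 3.58.1 (R 4.3.3) with a trended prior variance on log2(normalized reads + 1), which understates changes of low genes. It was two-sided, without covariates, on the 11174 genes whose mean reached 10, at an adjusted threshold of 0.05. Limma's SEs, intervals and p-values use each gene's spread drawn towards that of genes of similar level, so they are not the gene's own scatter alone. edgeR 4.0.16 and DESeq2 1.42.0 were run on the recovered reads. Other alternatives were pseudocounts of 0.5 and 8, no filter, library totals, TMM, a replicate block and leaving out each library. The limma fit was tested on simulated data, with its pass condition set at a dispersion well under that of these libraries. That check does not show what could be detected at their own scatter. Summaries used Python 3.11.15 with pandas 2.3.3, numpy 2.4.6 and matplotlib 3.10.9. The members and the context lists were chosen with earlier results of these data known. The genes named are the 8 members, at most 3 genes of highest mean from each of 4 context lists and of the other Y-linked genes, all 3 Y dyneins, and 2 genes most alike for each member. Outside that rule, flw and pont were named after their values were seen. The labels give no batch.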

Additional observations from a re-analysis of the deposited data

Results flagged for a closer look

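Each of the 8 genes, and their sum, was checked for a library lying apart within the 4 eRpL22-like libraries by Dixon's gap ratio at its 95% critical value, a rule that chance meets in about 1 of 20 groups. Of these 9 sets of values, 3 passed, and of 10983 genes tested whose eRpL22-like values were not all equal, 2859 (26.0%) passed. ORY had 2989.7 normalized reads in eRpL22-like replicate 1, against 296 to 327 in the other eRpL22-like libraries (gap ratio 0.989). ARY had 1928 in the same library, against 1146 to 1263 (0.849), and the other 3 lay within the range of the eRpL22 libraries, 896 to 1776. PRY had 225 in eRpL22-like replicate 4, against 0 to 29.9 (0.867), and eRpL22 replicate 3 held a similar 258.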

How the results depend on the processing

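Under all 15 alternatives 0 of the members tested were called. Of the 8, 6 were tested by edgeR and without eRpL22-like replicate 1, 4 had an adjusted p from DESeq2, and all 8 were tested in the other fits. Over the whole table limma called 0 genes and DESeq2 on the recovered reads called 172 of 8688. Of 116 fold changes recomputed for the members, 111 kept their direction and 5 changed sign, all when 1 library was left out. With libraries left out in turn, the log2 fold change ran from -0.21 to 0.29 for ARY and from -1.91 to 1.63 for PRY. The count of members without overlap, 0 with all libraries, ran from 0 to 2, while 8.67% to 12.4% of all genes did not overlap, against 5.14% with all libraries. The count at or under 3 reads in a library and at 100 or more in another, 4 with all libraries, ran from 2 (without eRpL22-like replicate 1) to 4. Pp1-Y2 had an unadjusted limma p of 0.0379 without eRpL22-like replicate 2 and 0.0329 without replicate 4. In those fits 4.18% and 4.24% of all genes had an unadjusted p under 0.05. With replicate number as a block limma called 0 genes (314 at an unadjusted p under 0.05). As no eRpL22 replicate 4 was analysed, the block takes up eRpL22-like replicate 4. The members' fold changes in that fit therefore equal those without eRpL22-like replicate 4, though both fits count among the 15 alternatives and the 116 fold changes. Same-numbered libraries did not deviate together (r of 0.00710, 0.0195 and 0.00995 over 11174 genes for numbers 1, 2 and 3). Of the eRpL22-like libraries, replicates 1 and 2 correlated best with their own number, and replicate 3 with eRpL22 replicate 1 (r of 0.0128). Every r between the pulldowns lay from -0.0232 to 0.0213, and the numbers were not taken as pairs. Levels per kilobase of coding sequence were planned but not run, since no coding lengths were available. The 95% interval for PRY spans 0.0127-fold to 42.7-fold.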
